A study of Mus musculus with 4 samples.

Results

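The 10 genes described here, Fos, Fosb, Jun, Junb, Jund, Egr1, Atf3, Ier2, Zfp36 and Dusp1, are AP-1 and immediate early genes, chosen by name from the 29835 genes listed in at least 1 of 4 single-cell libraries, and all 10 were listed in each library. Each library held ascites cells pooled from C57BL/6 mice of 1 treatment that carried ID8-Trp53-/- cells, a mouse ovarian surface epithelial line with Trp53 deleted by CRISPR, injected into the peritoneum and left to engraft for 7 days. All groups therefore shared the Trp53 deletion in the tumour cells and a host with an intact immune system, and all were collected at about 3 mL of ascites. The control group received DMSO and an IgG control antibody. The BTYNB group received BTYNB, a small molecule that blocks RNA binding by the oncofetal protein Igf2bp1, at 50 mg/kg with the control antibody, the anti-PD-1 group received DMSO and a PD-1 blocking antibody at 100 ng per dose, and the combination group received both agents. These doses are those of the sample labels, and the study's methods give other amounts.

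Immediate early genes are transcribed within minutes of a stimulus from factors already present in the cell, such as SRF, ELK1 and CREB, and need no new protein. Fos, Fosb, Jun, Junb and Jund encode the leucine zipper proteins that pair to form AP-1. Egr1 encodes a zinc finger factor induced through ERK, Atf3 a stress-induced factor that can pair with JUN proteins, and Ier2 a nuclear protein of the same early wave. Zfp36 encodes tristetraprolin, which binds AU-rich elements and hastens decay of early transcripts, and Dusp1 encodes a phosphatase that switches off the MAP kinases p38 and JNK. The same genes are also known to be induced when tissue is dissociated or cells are handled, so their levels in suspended cells need to be read class by class.

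The promoters of 4 members are shown because matches to the motifs searched lie in the 150 bases before their start. RefSeq windows of 300 bases (250 before to 50 after the start, build GRCm38.p6) were on hand for 8 of the 10 members, and Egr1 and Ier2 had none. The letters TGACTCA (the AP-1 site), TGACGTCA (the CRE, bound by CREB and ATF factors), TGACGT (the CRE half-site, which lies within the CRE) and the CArG box of SRF were searched on both strands, and TATAAA on the coding strand. The 150 bases before the start are printed 5′ to 3′ on the coding strand, with matches in capitals.

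Fos, chr12:85473740-85473889, plus strand: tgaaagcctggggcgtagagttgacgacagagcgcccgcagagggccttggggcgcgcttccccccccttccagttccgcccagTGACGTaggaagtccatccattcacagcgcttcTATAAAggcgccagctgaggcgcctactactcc
Atf3, chr1:191183334-191183483, minus strand: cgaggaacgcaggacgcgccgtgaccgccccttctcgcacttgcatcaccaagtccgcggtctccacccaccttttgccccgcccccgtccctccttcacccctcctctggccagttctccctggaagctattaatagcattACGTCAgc
Zfp36, chr7:28379229-28379378, minus strand: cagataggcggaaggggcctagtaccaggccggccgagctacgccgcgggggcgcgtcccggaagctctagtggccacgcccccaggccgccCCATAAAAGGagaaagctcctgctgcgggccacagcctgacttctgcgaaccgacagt
Dusp1, chr17:26508473-26508622, minus strand: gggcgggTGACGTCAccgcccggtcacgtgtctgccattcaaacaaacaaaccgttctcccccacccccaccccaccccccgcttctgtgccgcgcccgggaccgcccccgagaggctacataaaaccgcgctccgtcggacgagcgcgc

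The capitals in Fos mark a CRE half-site that ends 61 bases before the start and a TATA match, those in Atf3 a CRE half-site on the opposite strand, those in Zfp36 a CArG box and those in Dusp1 a whole CRE. Among all 32851 windows, 5.20% held the AP-1 site, 1.79% the CRE, 7.51% the half-site, 1.63% the CArG box and 8.32% TATAAA. The windows of Fosb, Jun, Junb and Jund had no AP-1, CRE, half-site or CArG match, and none of the 8 windows held TGACTCA. Outside the printed bases, Junb had a TATA match that begins at the start base itself, and Dusp1 had a further half-site that ends 186 bases before the start. These are letters in a window, not measured binding.

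Counts of unique molecules (UMIs) came from 7858 cells (control), 19247 (BTYNB), 12163 (anti-PD-1) and 7074 (combination), with 78603888 to 114600397 UMIs a library, and any pair of libraries shared at most 4 cell labels. Cells were put into classes by UMIs of class genes, tumour (Krt7, Krt8, Krt18, Krt19 and Wt1, at least 5, with no Ptprc), myeloid (Lyz2 and Csf1r, at least 3, with at most 2 keratin UMIs), T (Cd3d, Cd3e and Cd3g, at least 2) and B (Cd79a and Cd79b, at least 3). The tumour gate held 7114, 3606, 10923 and 4369 cells in control, BTYNB, anti-PD-1 and combination, and the myeloid gate held 292, 3134, 384 and 1258. Mesothelial-type markers not used by the gate (Msln, Upk3b, Upk1b, Lrrn4, Cldn15 and Krt14) summed to 862 to 1105 UMIs in 1000000 (CPM) in tumour-gated and 23.4 to 127 CPM in myeloid-gated cells, and the myeloid list summed to 39.7 to 58.3 CPM and 3418 to 4473 CPM. Trp53 transcript was counted in tumour-gated cells at 25.1 to 34.2 CPM, and such counts do not show whether a transcript carries the deletion. The T and B gates held much tumour RNA, since those tumour markers without Krt14 stood in T-gated cells at 20.4% (BTYNB) and 49.6% (combination) of their level in tumour-gated cells, and in B-gated cells at 52.0% and 82.1%. T and B values are therefore also given for cells with at most 2 keratin UMIs, where these shares were 4.89%, 6.74%, 6.27% and 9.59%. In control and anti-PD-1 the T and B gates held 22 to 39 cells each and were not compared. The lowest UMI count of any deposited cell was 5115 for combination, 4438 for control, 3533 for anti-PD-1 and 869 for BTYNB. T- and B-gated cells of BTYNB had medians of 2149 and 1950 UMIs, below the lowest count of every other library. Numbers of gated cells therefore do not cover a like range of depth, and the part of these lowest counts in them was not tested. With 1 library a group there was no replicate and no test, and every interval given is an exact 95% one that covers counting error only. The widest such interval reached 1.83% either side of the level in tumour-gated and 13.1% in myeloid-gated cells.

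In tumour-gated cells the 10 genes together took 0.791% of UMIs in control, 1.13% with BTYNB, 0.766% with anti-PD-1 and 1.05% with both agents. The libraries with BTYNB were thus above those without it for the sum. Some marker lists in these cells were ordered the same way. In control, BTYNB, anti-PD-1 and combination, B markers summed to 5.18, 16.5, 4.01 and 13.4 CPM, T markers to 15.04, 21.1, 13.5 and 22.6 CPM, fibroblast markers to 350.7, 431, 262 and 362.5 CPM and the tumour markers themselves to 862, 1105, 864 and 1039 CPM, with every gene of these lists counted. Without cells that also held the gate genes of another class, the median log2 ratio of the 10 genes was 0.59 for BTYNB over control and 0.46 for combination over anti-PD-1. The part of these other transcripts in the members' levels was not tested further. The same order held for each member except Ier2, as the following levels show, and the largest ratios were those of Jun and Atf3. Where 4 values follow without names, they stand for control, then BTYNB, then anti-PD-1, then combination.

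Among the FOS genes, Fos stood at 2052 CPM in control, 2506 with BTYNB, 1719 with anti-PD-1 and 2261 with both agents. Its log2 ratio of CPM + 1 was 0.29 for BTYNB over control and 0.40 for combination over anti-PD-1, so both were under 1.5-fold. Fosb, which unlike Fos also gives a short splice form that these counts do not separate, stood at 740, 1186, 730 and 1027 CPM in the same order. Its ratios were 0.68 (interval 0.67 to 0.70) and 0.49, so that only the first lay past 1.5-fold.

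Among the JUN genes, Jun, the partner of FOS proteins in the classic AP-1 dimer, stood at 491 CPM in control, 933 with BTYNB, 527 with anti-PD-1 and 909 with both agents. Its ratios of 0.92 (0.91 to 0.94) and 0.78 (0.77 to 0.80) both lay past 1.5-fold. Junb, which can dampen JUN activity, stood at 364, 553, 393 and 515 CPM, with ratios of 0.60 and 0.39. Jund, the member of the family with the steadiest expression in resting cells, stood at 1106, 1742, 1334 and 1581 CPM, with ratios of 0.65 and 0.25. For these 2 genes the ratio was past 1.5-fold without the antibody and under it with the antibody. The interval of Junb without the antibody, 0.58 to 0.63, spanned 1.5-fold. Throughout, past 1.5-fold refers to the point value.

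Egr1 stood at 885 CPM in control, 1241 with BTYNB, 832 with anti-PD-1 and 1027 with both agents, and its ratios of 0.49 and 0.30 were under 1.5-fold. Atf3 stood at 172, 325, 137 and 309 CPM, and its ratios of 0.91 (0.88 to 0.95) and 1.17 (1.14 to 1.21) included the one member ratio past 2-fold in tumour-gated cells. Ier2 stood at 403, 371, 304 and 361 CPM, highest in control, and its ratio was -0.12 for BTYNB over control and 0.24 for combination over anti-PD-1. Ier2 was thus the member whose levels did not separate the libraries with BTYNB from those without it.

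Of the feedback genes, Zfp36 stood at 987 CPM in control, 1437 with BTYNB, 1023 with anti-PD-1 and 1484 with both agents, with ratios of 0.54 in both comparisons. Dusp1 stood at 709, 1037, 664 and 1009 CPM, with ratios of 0.55 and 0.60. The genes that restrain early transcripts and MAP kinases were thus higher in the same libraries as Fos and Jun.

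**Figure D1:**
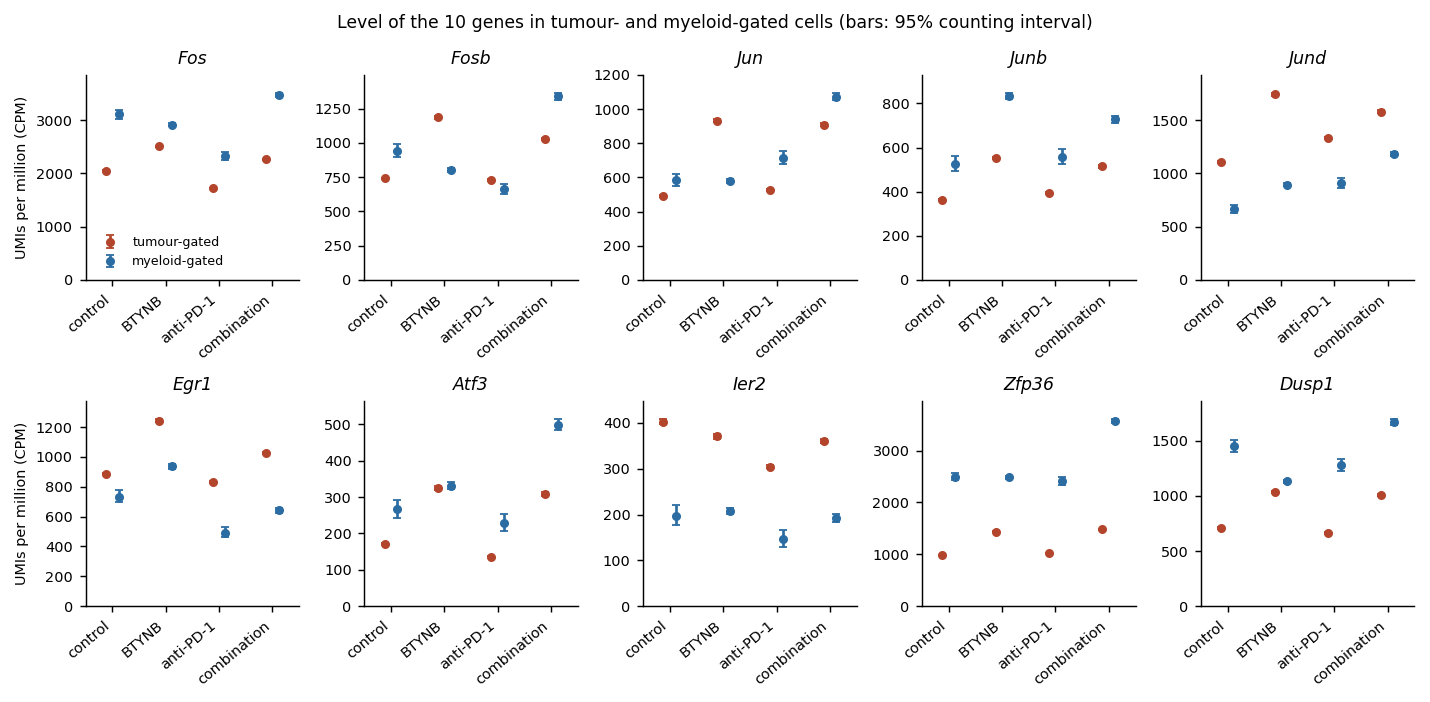
Level of each of the 10 genes in UMIs in 1000000 (CPM, axes from 0) in the 4 libraries, with tumour-gated cells in red and myeloid-gated cells in blue and bars for the exact 95% counting interval of a single library. In tumour-gated cells, Jun stood at 933 and 909 CPM in BTYNB and combination against 491 and 527 in control and anti-PD-1, while Ier2 was highest in control.

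Read against all 13176 genes with at least 100 UMIs in tumour-gated cells of any library, the share of members past 1.5-fold was above the background in the 2 comparisons that add BTYNB, which share no library. For BTYNB over control, 5 of 10 members (Fosb, Jun, Junb, Jund and Atf3) were past 1.5-fold higher where 3.52% of all genes were, and 0 were past it lower, where 3.11% of all genes were. The median member ratio was 0.57, with the second lowest at 0.29 and the second highest at 0.91, against 0.00 over all genes. For combination over anti-PD-1, 3 of 10 (Jun, Atf3 and Dusp1) were past 1.5-fold higher where 4.30% of all genes were, and 0 were lower where 5.48% were. The median member ratio was 0.44 against 0.05 over all genes. Each of the 10 members had a ratio above 0 there, as did 57.4% of all genes.

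In the 2 comparisons that add the antibody the members lay close to 0. For anti-PD-1 over control no member was past 1.5-fold, where 5.78% of all genes were higher and 3.01% lower, and the median member ratio was -0.05 against -0.06 over all genes. Ier2 (-0.40), Atf3 (-0.33) and Fos (-0.26) had the lowest ratios and Jund (0.27) the highest. For combination over BTYNB no member was past 1.5-fold either, where 0.395% of all genes were higher and 0.243% lower, and the median was -0.09 with Egr1 lowest at -0.27. The comparisons with control share the control library and those with combination share the combination library.

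**Figure D2:**
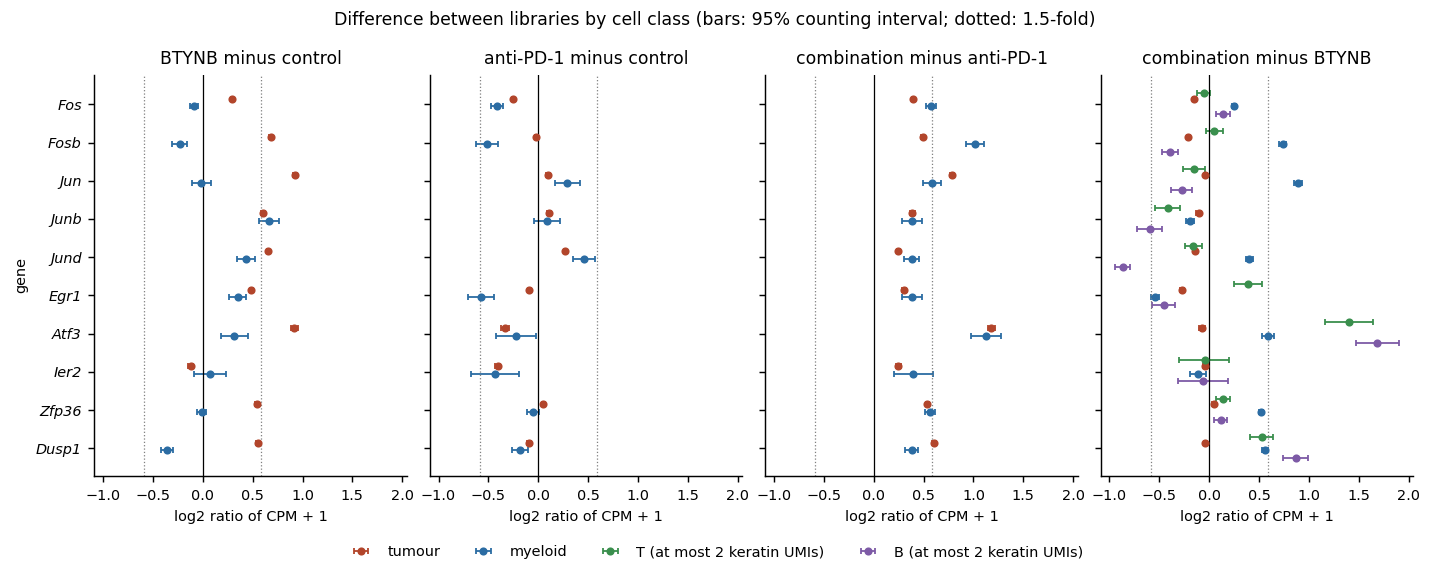
Log2 ratio of CPM + 1 for each gene in the 4 comparisons of libraries, by cell class, with exact 95% counting intervals and dotted lines at 1.5-fold. Tumour-gated points lie right of 0 for all members but Ier2 in BTYNB over control, with Jun at 0.92 and Atf3 at 0.91, and myeloid-gated points lie there between -0.36 and 0.66.

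Depth moved with these levels. Tumour-gated cells had a median of 9783 UMIs in control, 15221 with BTYNB, 7160 with anti-PD-1 and 11503 with both agents. In control the summed level of the 10 genes was 9960 CPM in cells of 5115 to 10000 UMIs, 6826 CPM between 10000 and 20000, and 5354 CPM in deeper cells. In BTYNB it was 14380 CPM, 13890 CPM and 9726 CPM in the same ranges. The deepest cells thus had the lower level in both, while the BTYNB library as a whole had the deeper tumour cells and the higher level. Within 5115 to 10000 UMIs the sum was 13100 CPM in combination and 7890 CPM in anti-PD-1. The range held 3420 of 7114 tumour-gated cells in control, 434 of 3606 in BTYNB, 6875 of 10923 in anti-PD-1 and 1669 of 4369 in combination. It thus held a small part of the BTYNB cells. In this range the median member ratio was 0.62 for BTYNB over control, with 5 of 10 members past 1.5-fold higher where 6.11% of genes were. It was 0.75 for combination over anti-PD-1, with 7 of 10 past it higher where 7.47% of genes were. That for anti-PD-1 over control was -0.39, with 2 members past 1.5-fold lower where 4.71% of genes were. Below 5115 UMIs the sums of control (11060 CPM, 285 cells), BTYNB (11160, 794 cells) and anti-PD-1 (10430, 2141 cells) lay close together, and combination had no such cell. The part of depth in the members' ratios was not tested beyond these ranges. The median mitochondrial share of tumour-gated cells was between 11.1% (control) and 12% (BTYNB).

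The difference was spread over many cells. After each tumour-gated cell was thinned to 3000 UMIs, which left out 492 shallower BTYNB cells and none elsewhere, the median cell held 21 UMIs of the 10 genes in control, 33 with BTYNB, 21 with anti-PD-1 and 30 with both agents. The lower quartile was 12, 19, 13 and 17 and the upper quartile 35, 50, 32 and 47, so each of the 3 quantiles was higher in the libraries with BTYNB. At this depth Atf3 was detected in 34.4% of control cells, 52.0% of BTYNB cells, 31.1% of anti-PD-1 cells and 51.6% of combination cells. Unthinned, the shares were 62.7%, 77.2%, 50.8% and 81.6%. Jun was detected in 63.5%, 77.7%, 63.9% and 77.6% of thinned cells, and Fos in 92.3% to 94.4% in all 4 libraries, so for Fos the level differed while the share of cells hardly did. The top 10% of cells held 50.4% of Atf3 UMIs in control and 40.7% in BTYNB, but 24.9% of Jund UMIs in both. No cell class here lacks these transcripts, so a share of cells set by free RNA alone could not be read from another class.

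**Figure D3:**
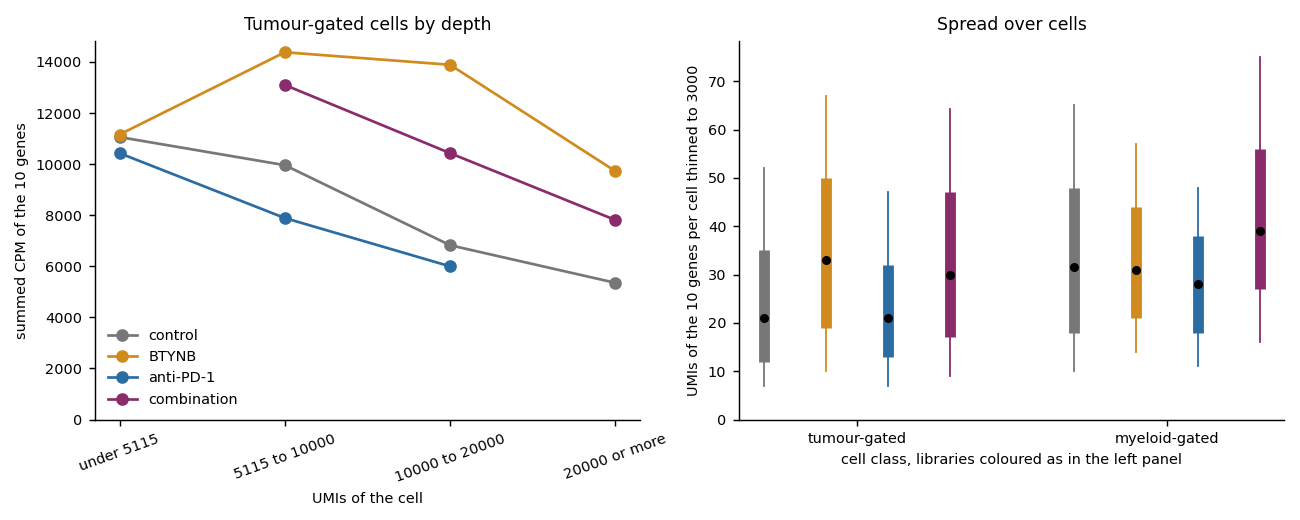
Left, summed level of the 10 genes (CPM) in tumour-gated cells in ranges of UMIs per cell, for ranges with at least 50 cells; between 5115 and 10000 UMIs it was 14380 CPM in BTYNB and 13100 in combination against 9960 for control and 7890 for anti-PD-1. Right, UMIs of the 10 genes per cell after thinning to 3000 UMIs, with the median as a point, quartiles as a thick bar and the 10th to 90th percentile as a thin line, in library order control, BTYNB, anti-PD-1 and combination.

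In myeloid-gated cells the 10 genes took 1.097% of UMIs in control, 1.11% with BTYNB, 0.972% with anti-PD-1 and 1.44% with both agents, so that combination was highest and BTYNB and control lay close together. Fos stood at 3106, 2913, 2327 and 3468 CPM and Fosb at 942, 802, 661 and 1339 CPM. Jun stood at 584, 578, 715 and 1072 CPM, and Atf3 at 267, 332, 229 and 499 CPM. All 4 genes were highest in the combination library. Junb (526, 833, 558 and 727 CPM) and Egr1 (735, 936, 493 and 643 CPM) were instead highest in BTYNB.

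The other myeloid levels were as follows. Jund stood at 662 CPM in control, 895 with BTYNB, 908 with anti-PD-1 and 1181 with both agents, and Ier2 at 198, 208, 146 and 192. Zfp36 stood at 2499, 2483, 2406 and 3560 CPM, so 3 libraries lay close together and combination above them. Dusp1 stood at 1454, 1132, 1281 and 1668 CPM, lowest in BTYNB.

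For BTYNB over control in myeloid-gated cells, 1 of 10 members (Junb, 0.66) was past 1.5-fold higher where 12.5% of 9310 genes were, and 0 were lower where 14.1% were, so the members' count was near the background. Their median ratio was 0.03. The interval of Junb there, 0.56 to 0.76, spanned 1.5-fold. For anti-PD-1 over control none was past 1.5-fold, where 6.77% of genes were higher and 9.18% lower, and the median was -0.20. For combination over anti-PD-1, 2 of 10 (Fosb, 1.02, and Atf3, 1.12) were past it higher where 10.3% of genes were, and 0 lower where 8.63% were, with a median of 0.48 against 0.00 over all genes. Every member had a ratio above 0 in that comparison, as did 50.2% of all genes. For combination over BTYNB, 3 of 10 (Fosb 0.74, Jun 0.89 and Atf3 0.59) were past it higher where 5.92% of genes were, and 0 lower where 4.30% were, with a median of 0.46. The interval of Atf3 there, 0.53 to 0.65, spanned 1.5-fold.

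The mix of myeloid cells differed between the libraries. Neutrophil markers (S100a8, S100a9, Csf3r, Retnlg, Cxcr2 and Mmp8) summed to 1925 CPM in BTYNB against 40.9 to 411 CPM elsewhere, with Cxcr2 at 0 in control and Mmp8 at 0 in anti-PD-1, and fibroblast markers (Col1a1, Col1a2, Dcn, Lum and Pdgfra) to 340 CPM for control and 562 for anti-PD-1 against 9.03 for BTYNB and 55.4 for combination, with Lum at 0 in each. Dendritic cell markers (Flt3, Xcr1, Clec9a, Cd209a, Ccr7 and Zbtb46) summed to 76.8 CPM in control, 362 with BTYNB, 66.2 with anti-PD-1 and 463 with both agents, highest like the members in combination, and none of the 6 was at 0. Erythroid markers, the globin genes and Alas2, summed to 97.2, 363, 13.4 and 265 CPM. T markers (32.0, 87.6, 39.5 and 81.2 CPM) and B markers (37.3, 92.9, 49.9 and 82.0 CPM) were also higher in the libraries with BTYNB, with Lck among the T markers at 0 in control, as were NK markers (3.49, 16.4, 2.32 and 15.5 CPM), with 2 of 5 at 0 in control and 4 of 5 in anti-PD-1. In myeloid-gated cells with at least 3 UMIs of C1q genes, a macrophage product, the median member ratio was 0.11 for BTYNB over control and 0.52 for combination over anti-PD-1, close to the values over all myeloid-gated cells. Dendritic markers in these C1q cells summed to 27.9, 62.6, 54.1 and 79.8 CPM, with Flt3 at 0 in control, and erythroid markers to 113, 251.5, 13.4 and 271 CPM. Fibroblast markers there summed to 284, 7.49, 582 and 67.65 CPM and T markers to 25.1, 79.85, 38.3 and 69.15 CPM. NK markers summed to 3.40, 16.2, 2.43 and 15.55 CPM and neutrophil markers to 42.1, 88.3, 54.1 and 46.0 CPM. In these 4 lists the genes at 0 were the same as over all myeloid-gated cells. The C1q cells thus still differed in markers of other cell types. The part of the other cell types in the myeloid ratios was not tested. Among these C1q cells Atf3 stood at 265 CPM in control, 320 with BTYNB, 229 with anti-PD-1 and 479 with both agents.

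Depth and free tumour RNA differed in this class as well. Median UMIs were 5344, 4392, 4203 and 7067, and within 5115 to 10000 UMIs the median member ratio was 0.12 for BTYNB over control and 0.51 for combination over anti-PD-1. That range held 178, 941, 66 and 1090 myeloid-gated cells, so the second ratio rests on 66 of the 384 cells of anti-PD-1. Thinned to 3000 UMIs, which left out 827 BTYNB cells, the median myeloid-gated cell held 31.5, 31, 28 and 39 UMIs of the 10 genes. Atf3 was then detected in 47.3%, 47.9%, 43.8% and 65.7% of cells, and unthinned in 62.3%, 54.5%, 53.4% and 83.8%. Tumour markers stood at 7.81%, 2.10%, 14.6% and 5.91% of their level in tumour-gated cells, a proportion that would carry at most 30.4% of a member's level, for Ier2 in anti-PD-1. With tumour RNA in that proportion subtracted, 8 of 10 members were past 1.5-fold higher for combination over anti-PD-1, where 17.8% of genes were, and 3 were lower for anti-PD-1 over control, where 17.7% of genes were.

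Within a library, the members differed in which class held more. Zfp36 was higher in myeloid-gated than in tumour-gated cells by 0.79 on the log2 scale in BTYNB and 1.26 in combination, and Ier2 was lower by 0.83 and 0.91 there (ratios of -0.83 and -0.91). Jund was also lower in myeloid-gated cells (-0.96 and -0.42), as was Egr1 (-0.41 and -0.67), and Junb was higher (0.59 and 0.50). Fosb and Jun had ratios of opposite sign in the 2 libraries, -0.56 and 0.38 for Fosb and -0.69 and 0.24 for Jun.

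In T-gated and B-gated cells only combination and BTYNB could be compared. With at most 2 keratin UMIs, T-gated cells numbered 2381 in BTYNB and 96 in combination, and Atf3 stood at 101 CPM in BTYNB and 267 in combination, a log2 ratio of 1.40 (1.16 to 1.65) on 629 and 185 UMIs. Dusp1 stood at 728 and 1047 CPM (0.52), and Junb at 1069 and 800 CPM (-0.42). In this set 1 of 10 members was past 1.5-fold higher where 14.4% of genes were, and 0 lower where 21.2% were, and the median was 0.00. Markers of other cells moved with these values. From BTYNB to combination, the T markers of these cells stood at 4065 and 1945 CPM, the myeloid markers at 328.5 and 1297 CPM and the gate genes Lyz2 and Csf1r at 467 and 2839 CPM, with no gene of these lists at 0, and Atf3 and Dusp1 had their highest levels in combination in myeloid-gated cells. Without cells of at least 3 Lyz2 and Csf1r UMIs, a limit chosen after seeing the data, 2291 and 59 cells stayed, with myeloid markers at 101 and 392 CPM. Dendritic markers (192 and 491.5 CPM) and NK markers (201 and 380 CPM) of these cells were also higher in combination. T markers (4338 and 2351 CPM), neutrophil markers (151 and 2.48 CPM) and fibroblast markers (87.8 and 29.8 CPM) were lower. In combination 1 NK, 5 neutrophil and 3 fibroblast genes were at 0. There Atf3 stood at 89.1 CPM in BTYNB and 211 in combination (1.23, or 85 UMIs in combination) and Dusp1 at 703 and 817 CPM (0.22), with 1 member past 1.5-fold higher where 15.8% of genes were, and 0 lower where 22.0% were. The part of the remaining myeloid RNA and of the other cell types was not tested. Before the keratin limit the count was also 1 higher (Atf3, 1.102, where 15.7% of genes were) and 0 lower (where 18.6% were).

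In B-gated cells with at most 2 keratin UMIs, 3204 in BTYNB and 115 in combination, Atf3 stood at 92.2 and 297 CPM (1.68) and Dusp1 at 434 and 791 CPM (0.87). Jund, whose highest level in any class was in B-gated cells of BTYNB, stood at 3489 and 1911 CPM (-0.87) and Junb at 1043 and 692 CPM (-0.59). There were thus 2 members past 1.5-fold higher, where 14.4% of genes were, and 2 lower, where 24.8% were. The B markers of these cells stood at 4521 CPM in BTYNB and 2517 in combination, the myeloid markers at 345 and 1429 CPM and Lyz2 and Csf1r at 426 and 3323 CPM, none of them at 0. Without cells of at least 3 Lyz2 and Csf1r UMIs, 3105 and 72 cells stayed, with myeloid markers at 142 and 354 CPM. T markers (317 and 516 CPM), erythroid markers (677.5 and 1210 CPM) and fibroblast markers (26.2 and 216.5 CPM, Lum at 0 in both) were also higher in combination. B markers (4813 and 3434 CPM) and neutrophil markers (149 and 2.19 CPM, 5 of 6 genes at 0 in combination) were lower. The part of these cell types was not tested. Atf3 then stood at 78.8 and 280.0 CPM (1.82) and Dusp1 at 388 and 509.6 CPM (0.39), so Dusp1 was no longer past 1.5-fold. The count became 1 higher, where 13.0% of genes were, and 2 lower, where 22.9% were. Before the keratin limit 0 were higher, where 10.3% of genes were, and 3 lower (Fosb -0.60, Junb -0.72 and Jund -0.69), where 20.6% were, so the members past 1.5-fold differed between the 2 sets of cells. Median depth differed too, at 2097 and 6593 UMIs in these T-gated cells and 1880 and 6309 in these B-gated cells, for BTYNB and combination. Cells of combination started at 5115 UMIs and those of BTYNB at 869, so these lymphocyte ratios set unlike ranges of depth side by side. The part of depth in these ratios was not tested. A range of 5115 to 10000 UMIs was taken only before the keratin limit, so with the tumour RNA of the full gates. There the median ratio was 0.40 for T-gated cells (144 in BTYNB and 122 in combination). For B-gated cells (133 and 172) it was -0.19.

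Set against tumour-gated cells of the same library, lymphocytes with at most 2 keratin UMIs had more Zfp36 (0.77 and 0.86 in T-gated, 0.75 and 0.82 in B-gated cells of BTYNB and combination), Fosb (0.48, 0.75, 0.86 and 0.68) and Junb (0.95, 0.64, 0.91 and 0.43). They had less Ier2 (-0.75, -0.75, -0.94 and -0.96) and Egr1 (-1.29, -0.62, -0.21 and -0.39). Atf3 was far lower in lymphocytes of BTYNB (-1.68 and -1.81), and its ratios in combination were -0.21 (-0.43 to 0.00) and -0.05 (-0.25 to 0.13). These cells of combination held Lyz2 and Csf1r at 2839 (T) and 3323 CPM (B). Without cells of at least 3 Lyz2 and Csf1r UMIs, Atf3 stood in combination at 211 (T) and 280.0 CPM (B), beside 309 CPM in tumour-gated cells. The part of RNA of myeloid and other cell types in the ratios of this paragraph was not tested.

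Across classes the signs of the members' ratios depended on the comparison. For BTYNB over control, 4 of 10 had ratios above 0 in both tumour- and myeloid-gated cells and 6 had opposite signs. By point value Junb was the member past 1.5-fold in both, with intervals that spanned 1.5-fold. For combination over anti-PD-1 all 10 were above 0 in both, with Atf3 past 1.5-fold in both. For combination over BTYNB, over 4 classes, 0 were past 1.5-fold in all and 9 had signs that differed between classes. The T and B gates were taken here before the keratin limit. Some of these ratios lay near 0, such as -0.0076 for Fosb in T-gated and -0.038 for Jun in tumour-gated cells. The share of all genes with signs that differ was not counted, so these counts describe the members alone. Heat shock genes, which also respond to handling, had a median ratio in tumour-gated cells of 0.10 for BTYNB over control (1 of 12 higher and 0 lower past 1.5-fold) and 0.04 for combination over anti-PD-1 (0 higher, 1 lower). In myeloid-gated cells their medians were -0.36 (1 of 13 higher, 4 lower) and 0.02 (3 higher, 1 lower). Of all genes in myeloid-gated cells, 12.5% were higher and 14.1% lower, then 10.3% and 8.63%, in these 2 comparisons. In tumour-gated cells the shares were 3.52% and 3.11%, then 4.30% and 5.48%. The part of dissociation and handling in the members' ratios was not tested, and with 1 pooled library a group, treatment and the handling of that pool cannot be told apart.

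Inside the tumour gate the members were unevenly spread. Tumour-gated cells with at least 5 UMIs of Cd24a, Gkn2 and Krtdap made up 6.82% of the gate in control, 12.01% with BTYNB, 25.4% with anti-PD-1 and 14.4% with both agents, and cells with at least 3 UMIs of Cxcl17 made up 48.8%, 44.8%, 31.8% and 48.1%. Against cells with neither, the Cd24a-Gkn2-Krtdap cells had a median member ratio of -0.46, -0.49, -0.48 and -0.63, with Jun lowest in every library, at -1.57 in anti-PD-1. These cells were also deeper, at a median of 13983, 26660, 9112 and 15810 UMIs against 8517, 7676, 6297 and 9864 in cells with neither. Their ratio was not taken at a like depth, and the share of all genes below 0 was not counted for it. Cxcl17 cells had medians of -0.53, -0.26, -0.38 and -0.26. The ratio was below 0 for 10, 10, 10 and 9 members in Cxcl17 cells, and for 53.4%, 57.0%, 61.9% and 55.3% of all genes. When both sets were left out, 3432, 1835, 6231 and 2019 cells stayed, and the median member ratio was 0.45 for BTYNB over control, -0.18 for anti-PD-1 over control, 0.46 for combination over anti-PD-1 and -0.10 for combination over BTYNB. The 2 comparisons that add BTYNB thus kept their direction in these cells, with 3 members past 1.5-fold higher in the first, where 2.64% of genes were, and 2 in the second, where 2.83% were.

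Cycling cells, taken as tumour-gated cells with at least 2 UMIs of Mki67 and Top2a together, had less of the members than the other tumour-gated cells in each library. They made up 43.4% of the gate in control, 32.2% with BTYNB, 42.7% with anti-PD-1 and 41.0% with both agents. Jun stood in cycling and other cells at 361 and 622 CPM in control, 597 and 1168 in BTYNB, 356 and 688 in anti-PD-1, and 632 and 1154 in combination. Egr1 stood at 650 and 1121 CPM in control and 864 and 1505 in BTYNB. The median member ratio was -0.61, -0.76, -0.52 and -0.66 in control, BTYNB, anti-PD-1 and combination, against -0.11, -0.10, -0.11 and -0.13 over all genes. All 10 members had a ratio below 0 in each library, as did 63.3%, 59.2%, 63.0% and 63.3% of all genes. Jund had the ratio nearest 0 in 3 of the 4 libraries and Fos in anti-PD-1.

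Cycling cells were deeper (11699 against 8644 median UMIs in control), and cells with Cxcl17 were deeper too (11270 against 8517 in control), and these gates themselves count UMIs. Within 5115 to 10000 UMIs the cycling ratio was -0.58, -0.87, -0.41 and -0.50 in control, BTYNB, anti-PD-1 and combination, and again below 0 for each member. The Cxcl17 ratio in that range was -0.46, -0.16, -0.28 and 0.04, so in combination it was no longer below 0. Without cycling cells the median member ratio was 0.56 for BTYNB over control and 0.51 for combination over anti-PD-1.

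**Figure D4:**
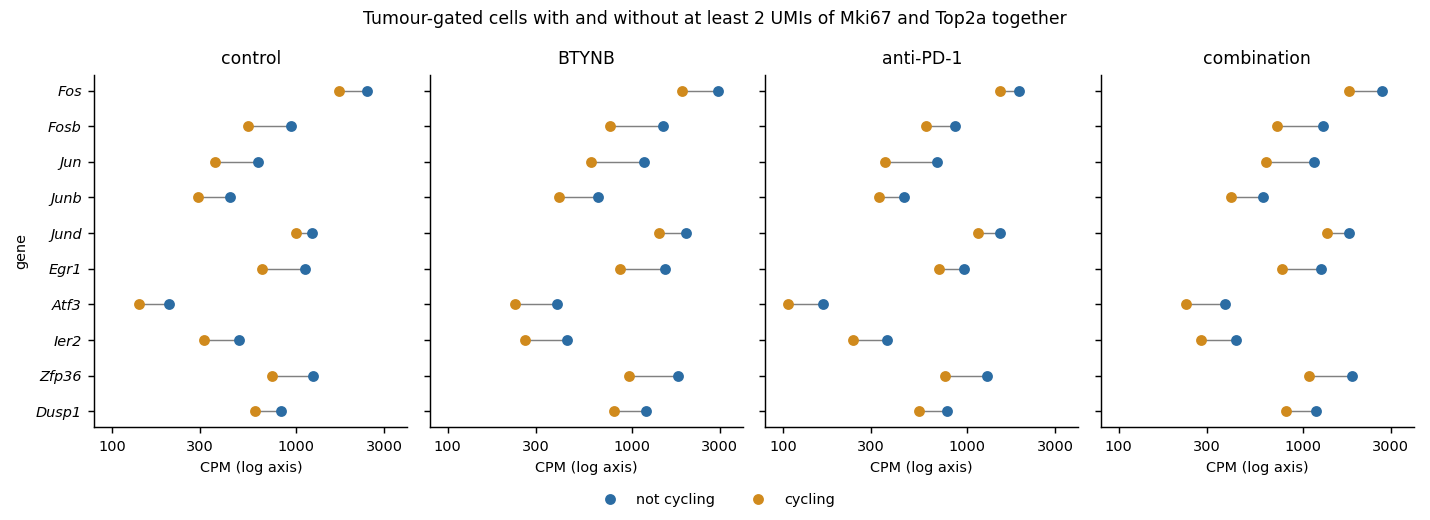
Level (CPM, log axis) of each gene in tumour-gated cells with at least 2 UMIs of Mki67 and Top2a together (cycling, orange) and in the other tumour-gated cells (blue), in the 4 libraries. All orange points lie left of the blue ones, with Jun at 361 against 622 CPM in control.

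Over single cells thinned to a like depth, the members' counts were correlated. In tumour-gated cells the highest of the 45 pairwise Pearson correlations of UMIs was that of Fos and Fosb in every library (0.62 in control, 0.57 with BTYNB, 0.52 with anti-PD-1 and 0.59 with both agents), and the median pair lay between 0.36 and 0.40. In myeloid-gated cells the highest was that of Fos and Zfp36 in every library (0.56, 0.50, 0.50 and 0.57), with a median pair between 0.23 and 0.27. These correlations describe cells that share 1 library each. Pairs of other genes were not taken, so the values are not set against a background.

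Over the 12 sums of a class in a library with at least 50 cells, the genes whose log2 level was most like the mean of the members, among 2481 well counted genes, were Malat1 (Pearson 0.83), Ifrd1 (0.83), Sik1 (0.80), Csrnp1 (0.80), Nr4a1 (0.80), Nktr (0.75), Mapk6 (0.74) and Qrich1 (0.73). Among the members, Jun (0.80) and Fosb (0.78) were most like the mean of the others, and Egr1 (0.07) and Ier2 (-0.19) least. The 12 sums share libraries, and those of T- and B-gated cells hold tumour RNA.

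Of 21 other immediate early genes, listed by name, 7 were past 1.5-fold higher in tumour-gated cells and 0 lower for BTYNB over control (median 0.46, where 3.52% of all genes were higher), and 9 higher and 0 lower for combination over anti-PD-1 (median 0.46, where 4.30% were higher), against 0 and 0 for anti-PD-1 over control (median -0.05). The other genes of the list stayed under 1.5-fold, among them Ccn2, a matricellular protein gene, at -0.069 and -0.12, and Btg1, an antiproliferative gene, at 0.12 and -0.27, both named after their values were seen. Csrnp1, an early nuclear factor, stood at 106 CPM in control, 213 with BTYNB, 104 with anti-PD-1 and 190 with both agents, and Btg2, an antiproliferative early gene, at 328, 516, 299 and 466 CPM. Nr4a3, an orphan nuclear receptor, was scarce, at 2.59, 4.60, 1.82 and 4.61 CPM. In myeloid-gated cells 10 of 20 tested genes of this list were higher and 1 lower for BTYNB over control, and 10 higher and 2 lower for combination over anti-PD-1 (medians 0.53 and 0.61). Of all genes there, 12.5% were higher and 14.1% lower in the first comparison, and 10.3% and 8.63% in the second. The list thus had a median above 0 in myeloid-gated cells for BTYNB over control, where that of the 10 members was 0.03.

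Around the MAP kinases, 12 other phosphatases and feedback genes had 3 higher and 0 lower for BTYNB over control (median 0.32), 4 higher and 0 lower for anti-PD-1 over control (median 0.26) and 3 higher and 1 lower for combination over anti-PD-1 (median -0.023). Of all genes, 3.52%, 5.78% and 4.30% were past 1.5-fold higher in these comparisons, in the same order, and 3.11%, 3.01% and 5.48% lower. Genes of this list were thus past 1.5-fold higher in the comparison without BTYNB as well. Dusp8, a phosphatase of JNK and p38, stood at 4.99, 8.93, 3.48 and 7.90 CPM, and Dusp2, a nuclear MAP kinase phosphatase, at 0.493, 1.85, 0.497 and 2.13 CPM. The 13 upstream kinases and factors themselves had medians of -0.01 and 0.06 in the 2 comparisons that add BTYNB. There 0 were higher and 0 lower in the first comparison and 1 and 1 in the second. Of 5 ZFP36 family and mRNA decay genes, 2 were higher in the first and none past 1.5-fold in the second.

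A list of 13 known AP-1 target genes (Timp1, Mmp3, Mmp9, Mmp13, Plau, Plaur, Ccnd1, Vim, Cd44, Hbegf, Areg, Il6 and Ptgs2) held 10 with enough UMIs in tumour-gated cells, and Mmp3, Mmp9 and Il6 had too few. For BTYNB over control, 1 of the 10 was past 1.5-fold higher and 0 lower (median 0.18). For anti-PD-1 over control, where no member was past 1.5-fold, 7 were higher and 0 lower (median 0.66), beside the 5.78% of all genes that were higher. For combination over anti-PD-1, 0 were higher and 5 lower (median -0.69), beside the 5.48% of all genes that were lower. Timp1, Vim and Ptgs2 stayed under 1.5-fold for anti-PD-1 over control, at 0.48, 0.06 and 0.11. Of all genes, 3.52%, 5.78% and 4.30% were higher and 3.11%, 3.01% and 5.48% lower in these 3 comparisons. Of 11 tested other AP-1 family genes, 3, 2 and 1 were higher and 0, 0 and 1 lower. Fosl1, which encodes the FOS-related protein FRA1, was the one lower in the last, and was chosen for description after its values were seen. It stood at 12.2 CPM in control, 25.3 with BTYNB, 43.0 with anti-PD-1 and 24.96 with both agents, highest in the library where the target Plaur, the urokinase receptor and also chosen after its values were seen, stood at 180 CPM against 46.0 to 52.9 elsewhere.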

How the data were processed

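Ascites cells were depleted of erythrocytes, cryopreserved and captured on BD Rhapsody with whole transcriptome polyA libraries. The authors ran the BD Rhapsody Sequence Analysis Pipeline on build GRCm39 (per the labels) and deposited whole-number UMI counts per gene and cell, 1 matrix per library. Here the deposited counts of cells with at least 200 genes and at most 33% mitochondrial UMIs (45178 of 46342 cells) were summed by UMI gates and library and scaled to CPM. Ratios are log2 of (CPM + 1), over genes with at least 100 UMIs in any library of a class, in classes with at least 50 cells in both libraries. Intervals are exact Poisson for levels and Clopper-Pearson for ratios and shares (scipy 1.17.1). A member counts as past 1.5-fold by its point value. Scrublet (scanpy 1.11.5) marked 0%, 2.84%, 0.0416% and 0.0710% of cells in control, BTYNB, anti-PD-1 and combination, so it did not work and no doublets were removed. The ratios and their intervals, but not the gates, were tested on simulated counts per gene. The members and lists were chosen with earlier results of these data known. Besides the members, a list's genes were named when past 1.5-fold the same way in both comparisons that add BTYNB (up to 3 a list), and 8 genes by likeness of pattern.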

Additional observations from a re-analysis of the deposited data

Results flagged for a closer look

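In 11 cases a member lay on opposite sides of 0 in 2 cell classes under the same comparison, with at least 1 side past 1.5-fold, and in 6 of them the other side lay within 1.1-fold of no difference. With 1 library a group, none of these differences was tested. The share of all genes that meet this rule was not counted, so the 11 cases are not set against a background. For BTYNB over control, Fosb had a log2 ratio of 0.68 in tumour-gated and -0.23 in myeloid-gated cells, and Jun 0.92 and -0.015. For combination over BTYNB, myeloid-gated cells lay above 0 and tumour-gated cells below it for Fosb (0.74 and -0.21), Jun (0.89 and -0.038) and Atf3 (0.59 and -0.073), and Atf3 also lay above 0 in T-gated cells (1.102). In the same comparison T-gated cells lay opposite to myeloid-gated cells for Fosb (-0.0076) and Jun (-0.092), and B-gated cells did for Fosb (-0.60), Jun (-0.23) and Jund (-0.69 in B, 0.40 in myeloid). The T and B gates held tumour RNA. With at most 2 keratin UMIs the T values were 0.05 for Fosb, no longer below 0, and -0.15 for Jun, and the B values were -0.39, -0.28 and -0.87, so all 3 still lay opposite to the myeloid ones.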

How the results depend on the processing

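No paired analysis was possible because each group has 1 library, and no library could be left out for the same reason. The median member ratio was recomputed with another scaling (median of ratios, or totals without mitochondrial and ribosomal protein genes), as a mean over cells, with a pseudocount of 10 CPM, without cell filters, with a common floor on UMIs, with doubled gates, without cells of the 5% highest scrublet scores, without cells of other classes or subsets, and with free tumour RNA subtracted. Chosen after seeing the data were the range of 5115 to 10000 UMIs, the limits on keratin and on Lyz2 and Csf1r UMIs in T and B gates and a background of genes with at least 100 CPM. Of 126 such medians, 123 stayed between the second lowest and second highest member ratio as first reported. The others were -0.35 for T-gated and -2.27 for B-gated cells (combination over BTYNB) with free tumour RNA subtracted, and -0.39 for anti-PD-1 over control in tumour-gated cells of 5115 to 10000 UMIs. The construction of the subtraction removes most of the B-gated level, and the cause of the last was not tested. In tumour-gated cells the range was 0.45 to 0.62 for BTYNB over control and 0.39 to 0.75 for combination over anti-PD-1. In myeloid-gated cells it was 0.02 to 0.15 and 0.47 to 0.66. In T-gated cells combination over BTYNB ranged from -0.35 to 0.40 and so had no stable direction. Of 272 counts of members past 1.5-fold, 42 moved by over 1.5 times. In tumour-gated cells BTYNB over control gave 3 higher without Cd24a-Gkn2-Krtdap or Cxcl17 cells and 0 at 2-fold, combination over anti-PD-1 gave 7 higher in the range of 5115 to 10000 UMIs and 1 at 2-fold, and anti-PD-1 over control gave 2 lower in that range. In myeloid-gated cells the moved counts were 0 (floor, 2-fold) and 2 (that range) higher for BTYNB over control, 1 higher (floor, that range), 1 lower (that range, doubled gates, mean over cells) and 3 lower (tumour RNA subtracted) for anti-PD-1 over control, 4 (floor, doubled gates) and 8 (tumour RNA subtracted) higher for combination over anti-PD-1, and 1 (that range) and 0 (2-fold) higher and 1 lower (C1q cells, tumour RNA subtracted, doubled gates, mean over cells) for combination over BTYNB. For combination over BTYNB in T-gated cells they were 0 (floor), 2 (Cd8 cells, mean over cells, scrublet) and 3 (that range) higher and 1 (mean over cells) and 4 (tumour RNA subtracted) lower. In B-gated cells they were 1 or 2 higher (8 settings), 0 lower (floor, that range, 2-fold) and 9 lower (tumour RNA subtracted). With the background of genes with at least 100 CPM, 2.23% (BTYNB over control) and 1.82% (combination over anti-PD-1) of genes in tumour-gated cells were past 1.5-fold higher. Of the ratios of single members under these settings, 401 moved out of their counting interval and 859 did not. Removing T-gated cells that met another gate left 49 in combination and was not run.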
